A study of Saccharomyces cerevisiae with 18 samples.

Results

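Wild-type budding yeast 60 min after return to glucose were compared with the same cultures at 0 min, sampled straight after glucose-depleted cells had entered fresh medium. The comparison rests on 4 of the 18 arrays of the series, those of cultures a and b at 60 min and those of cultures a and b at 0 min, chosen by their labelled times. The question it addresses is how the transcriptome of cells an hour into renewed glucose supply differs from that of cells that had used their glucose up. Both cultures were grown for 24 h to deplete the glucose and were then diluted into fresh synthetic complete medium with 2% glucose. The RNA of each sample was hybridised together with a common pool of wild-type RNA, so that every value is a log2 ratio to that pool and a fold change is the difference between the ratios of 2 times. The cultures are independent, but each time has only 2 arrays. The p-values rest on the spread between arrays of the same time, pooled over the 9 times and all 18 arrays.

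The 4 arrays were technically similar, but as labelled the 0 min array of culture a ran opposite to the others in its mating type genes. On them 98.4 to 99.01% of gene spots per array exceeded the local background, and 322 to 475 were saturated in at least 1 dye. Precision is limited by the small number of arrays. At 60 min the sample of culture a is labelled with Cy3 and that of culture b with Cy5, whereas both 0 min samples are labelled with Cy5. Taken as labelled, the 0 min arrays correlated across genes at -0.912, and the 60 min arrays at 0.955. The labels name the strain BY4742, which is known as a MATalpha strain without LYS2, and give its genotype as wt-matA. On the 60 min arrays the 4 alpha-cell genes measured had log2 ratios of -6.30 to -3.09 and the 7 a-cell genes 1.03 to 4.76. On the 0 min array of culture b, SAG1 and STE3 had -2.95 and -3.58 and the a-cell receptor gene STE2 3.42, as on the later arrays. As labelled, that of culture a had 3.42 for SAG1, 3.81 for STE3 and -3.28 for STE2. LYS2 was high (4.47 and 4.12 at 60 min) and MET17 low (-5.28 and -4.56 at 60 min). These levels go with the mating type label and against the strain name. The sign of this array was therefore turned, and counts or medians with it as labelled are given for most groups of genes. Where counts moved by over 1.5 times without it, the counts or the median without it are given too. With this turn all samples of culture a are in Cy3 and all of culture b in Cy5, so that culture and dye cannot be told apart.

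Yeast cells with ample glucose ferment it and grow fast, while cells that have run out respire ethanol and acetate, store glycogen and trehalose and express stress proteins. The switch is known to run through protein kinase A and Sch9, which promote ribosome production when glucose is present, and through the kinase Snf1, which allows the genes for other carbon sources to be transcribed when it is absent. Cells that re-enter growth also have to pass from a resting state back into the division cycle, whose G1/S genes, histone genes and mitotic genes are transcribed in waves.

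At 60 min 999 genes were higher and 1157 lower than at 0 min, among 5269 genes tested with limma. A call required an adjusted p (Benjamini-Hochberg) below 0.01 and a difference of more than 1.7-fold. The called genes were 40.9% of those tested, 19.0% higher and 22.0% lower, and the median change over all genes was -0.01 on the log2 scale. The change was similar in both cultures, as the plot of one culture against the other shows, with a median gap of 0.19 between the 0 min arrays and of 0.10 between the 60 min arrays. Genes saturated on a 0 min array were the exception, since 64.4% of these 194 genes had 0 min ratios more than 1 log2 unit apart, against 1.91% of the other 5075. Without the 0 min array of culture a, 859 genes were higher (16.3%) and 1176 lower (22.3%), together 38.6%. As labelled, where the 2 opposite 0 min arrays cancel, 7 genes were higher (0.133%) and 66 lower (1.25%), together 1.39% of those tested, and at an unadjusted p under 0.05 304 were higher and 530 lower. The external control RNAs, added in equal amounts to total RNA, had median log2 ratios of 0.06 and 0.16 at 60 min, against 0.74 and 1.13 at 0 min. When every array was shifted to these controls, the median change became 0.82, with 2701 genes higher (51.3%) and 488 lower (9.26%), together 60.5%. All values that follow are relative to the bulk of the transcripts.

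**Figure D1:**
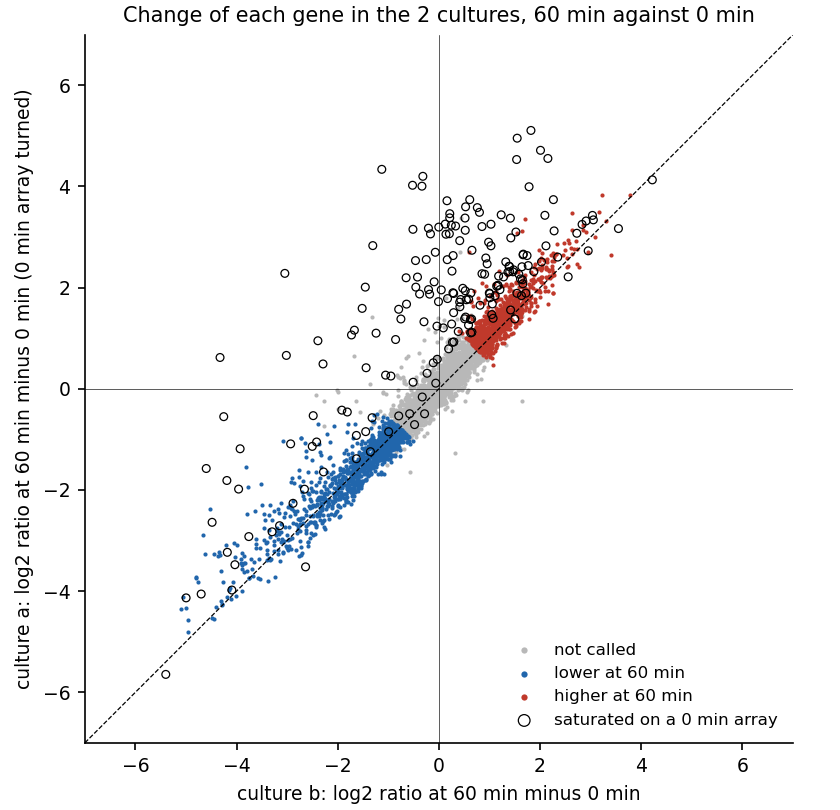
Difference of 60 min against 0 min for each of 5269 genes in culture b (x axis) and culture a (y axis, with its 0 min array turned), as differences of log2 ratios, coloured by call; open circles are the 194 genes saturated on a 0 min array. Most genes lie along the dashed line of equal change, and the saturated genes lie mainly above it.

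Genes of respiration fell almost throughout. Of 39 genes of the respiratory chain and ATP synthase, 37 were lower at 60 min and 0 higher, with a median change of -2.71, against 22.0% of all genes tested that were lower. CYC7, an isoform of cytochrome c, had log2 ratios of -0.47 and -0.32 at 60 min in cultures a and b, against 4.07 and 4.16 at 0 min. The 2 times did not overlap, and the fall was 22.7-fold (log2 -4.51, SE 0.10, adjusted p = 4.31e-11 by limma). CYC1, the main cytochrome c, fell 13.5-fold, STF1, which stabilises the inhibited ATP synthase, 19.3-fold, and COX13, a subunit of cytochrome c oxidase, 15.5-fold. ATP2 and ATP17, both of ATP synthase, were the 2 genes not called, and the 0 min arrays differed for ATP2, with -0.74 (a) and 4.27 (b). In the TCA cycle 18 of 23 genes were lower and 0 higher, and with the shift to the external controls 12 were lower and 0 higher. SDH1, the flavoprotein of succinate dehydrogenase, had -0.27 and -0.41 at 60 min, against 4.04 and 3.99 at 0 min, a 20.6-fold fall. Its partner SDH2 fell 16.4-fold and the mitochondrial citrate synthase isoform CIT3 12.6-fold. CIT1, the main mitochondrial citrate synthase, was saturated at 0 min on both arrays, with -1.69 and -1.54 at 60 min, against 2.29 and 2.56 at 0 min (log2 -4.04, adjusted p = 4.38e-09 by limma). For genes saturated in the sample's channel at a time, no fold is given. The 5 members of this list not called were LSC1 and 4 genes of the pyruvate dehydrogenase complex, PDA1, PDB1, LAT1 and PDX1, with changes from -0.73 to -0.09. As labelled, 0 of the 39 respiratory and 0 of the 23 TCA genes were called, with medians of -0.63 and -0.32.

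Genes for gluconeogenesis and for the use of two-carbon and other alternative carbon sources were mostly lower. In the list for these carbon sources 22 of 29 genes were lower and 1 was higher, with a median of -2.36. IDP2, the cytosolic isocitrate dehydrogenase that makes NADPH on non-fermentable carbon, had 0.32 and 0.08 at 60 min and 4.89 and 5.05 at 0 min, a 27.4-fold fall. CAT2, the carnitine acetyltransferase that moves acetyl groups into mitochondria, fell 26.4-fold, and SFC1, the mitochondrial succinate-fumarate carrier, 19.6-fold. CIT2, the peroxisomal citrate synthase of the glyoxylate cycle, was saturated on both 0 min arrays and lower at 60 min (log2 -4.57). The exception was ADH2, annotated as the glucose-repressed alcohol dehydrogenase, with 0.04 and 0.26 at 60 min, against -2.43 and -2.48 at 0 min, or 6.06-fold higher. Its sequence is close to that of ADH1, the fermentative enzyme, and the signal of near-identical copies cannot be assigned on 70-mer probes. The list of peroxisomal fatty acid oxidation and peroxisome assembly followed, with 14 of 25 genes lower and 0 higher and a median of -0.93. FOX2 and POX1, enzymes of the oxidation cycle, fell 6.34-fold and 5.44-fold, while POT1 and DCI1 of the same list were not called (log2 -0.07 for each). With the shift to the external controls the oxidation list had 7 genes lower and 2 higher, with a median of -0.10. As labelled, none of the genes of either list was called, and their medians were 0.01 and -0.12.

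Regulators of these genes were also lower. Among 50 genes of the Ras/PKA, Snf1 and stationary phase pathways, 26 were lower and 2 higher, with a median of -0.81. The shift to the external controls turned that median to 0.02 and left 17 lower and 11 higher. CAT8, the activator of gluconeogenic genes, had 0.32 and 0.26 at 60 min, against 3.89 and 3.96 at 0 min, a 12.4-fold fall (SE 0.08 on the log2 scale, adjusted p = 4.31e-11 by limma). SIP4, an activator of the same genes, fell 9.85-fold, ADR1, which activates ethanol and fatty acid use, 8.42-fold, and REG2, a regulatory subunit of the phosphatase Glc7, 8.77-fold. The 2 genes that rose were TOD6, a repressor of ribosome biogenesis genes, 2.04-fold, and SNF4, the activating subunit of the Snf1 kinase, 1.73-fold. SNF4 lies near the fold threshold and was not called when either the 0 min sample of culture b or the 60 min sample of culture a was left out. As labelled, TOD6 was the 1 regulator called.

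Stress and storage genes also came down. Of 48 targets of the stress activators Msn2 and Msn4, 44 were lower and 0 higher, with a median of -2.68. SIP18, a protein of desiccation tolerance, fell 16.6-fold, with 0.77 and 0.79 at 60 min and 4.86 and 4.81 at 0 min. HSP104, the disaggregase, fell 15.4-fold, and the small heat shock protein gene HSP26 was lower (log2 -4.38) with both 0 min arrays saturated. YRO2, a membrane protein related to the heat shock protein Hsp30, showed the largest fitted fall of all genes (log2 -5.52), with both 0 min arrays saturated, and -4.85 with 1 loess curve per array in place of 1 per print tip. PIC2, a mitochondrial phosphate and copper carrier, came next, 29.5-fold lower, with -0.56 and -0.42 at 60 min, against 4.24 and 4.54 at 0 min. In trehalose metabolism 6 of 7 genes were lower. The breakdown enzymes ATH1 and NTH1 fell 6.49-fold and 4.84-fold, and the synthesis genes TPS2 and TSL1 4.09-fold and 4.08-fold. In glycogen metabolism 13 of 16 were lower and 2 higher, and GPH1, of glycogen mobilisation, was not called (log2 0.02). With the shift to the external controls 9 glycogen genes were lower and 3 higher, and 4 trehalose genes were lower and 0 higher. GIP2, a regulator of the phosphatase Glc7, fell 8.31-fold, the branching enzyme gene GLC3 7.03-fold and the glycogen synthase gene GSY2 5.13-fold. PGM1, the minor phosphoglucomutase, went the other way and was 4.8-fold higher, with -1.03 and -1.13 at 60 min, against -3.37 and -3.31 at 0 min. PIG1, a putative regulatory subunit for glycogen synthesis, rose 2.06-fold. As labelled, 1 stress gene and 1 trehalose gene were lower and no glycogen gene was called, and the 3 medians were -0.12, -0.97 and -0.17.

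Genes of autophagy and of amino acid uptake were lower. In autophagy 16 of 26 genes were lower and 0 higher (median -1.08), with a 6.44-fold fall of the kinase gene ATG1, 5.89-fold of ATG8, the ubiquitin-like protein of the autophagosome membrane, and 4.23-fold of ATG3, which conjugates it. Among 23 permeases for amino acids and related nitrogen compounds, 14 were lower and 0 higher, with a median of -1.66. DIP5, the permease for glutamate and aspartate, had -1.31 and -1.13 at 60 min, against 2.43 and 3.68 at 0 min, a 19.3-fold fall. Its log2 change of -4.27 became -4.90 without the 0 min sample of culture a and -3.64 without that of culture b. AGP1, a broad amino acid permease, fell 16.7-fold, and MEP2, an ammonium permease, 10.1-fold. Of 34 proteasome genes 8 were lower and 0 higher, a share close to the 22.0% of all genes. RPT2 of the regulatory particle fell 3.29-fold and RPN4, the activator of the family, 2.95-fold. Among 72 mitochondrial ribosomal protein genes 26 were lower and 0 higher, with the largest fall for MRP8, 4.94-fold. The shift to the external controls gave 9 autophagy genes lower and 5 higher, and 12 permease genes lower and 4 higher. It turned the direction of the proteasome and mitochondrial ribosomal protein lists, with 9 proteasome genes higher and 1 lower and 6 mitochondrial ribosomal protein genes higher and 3 lower. As labelled, 1 autophagy gene and no gene of the other 3 lists was called.

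**Figure D2:**
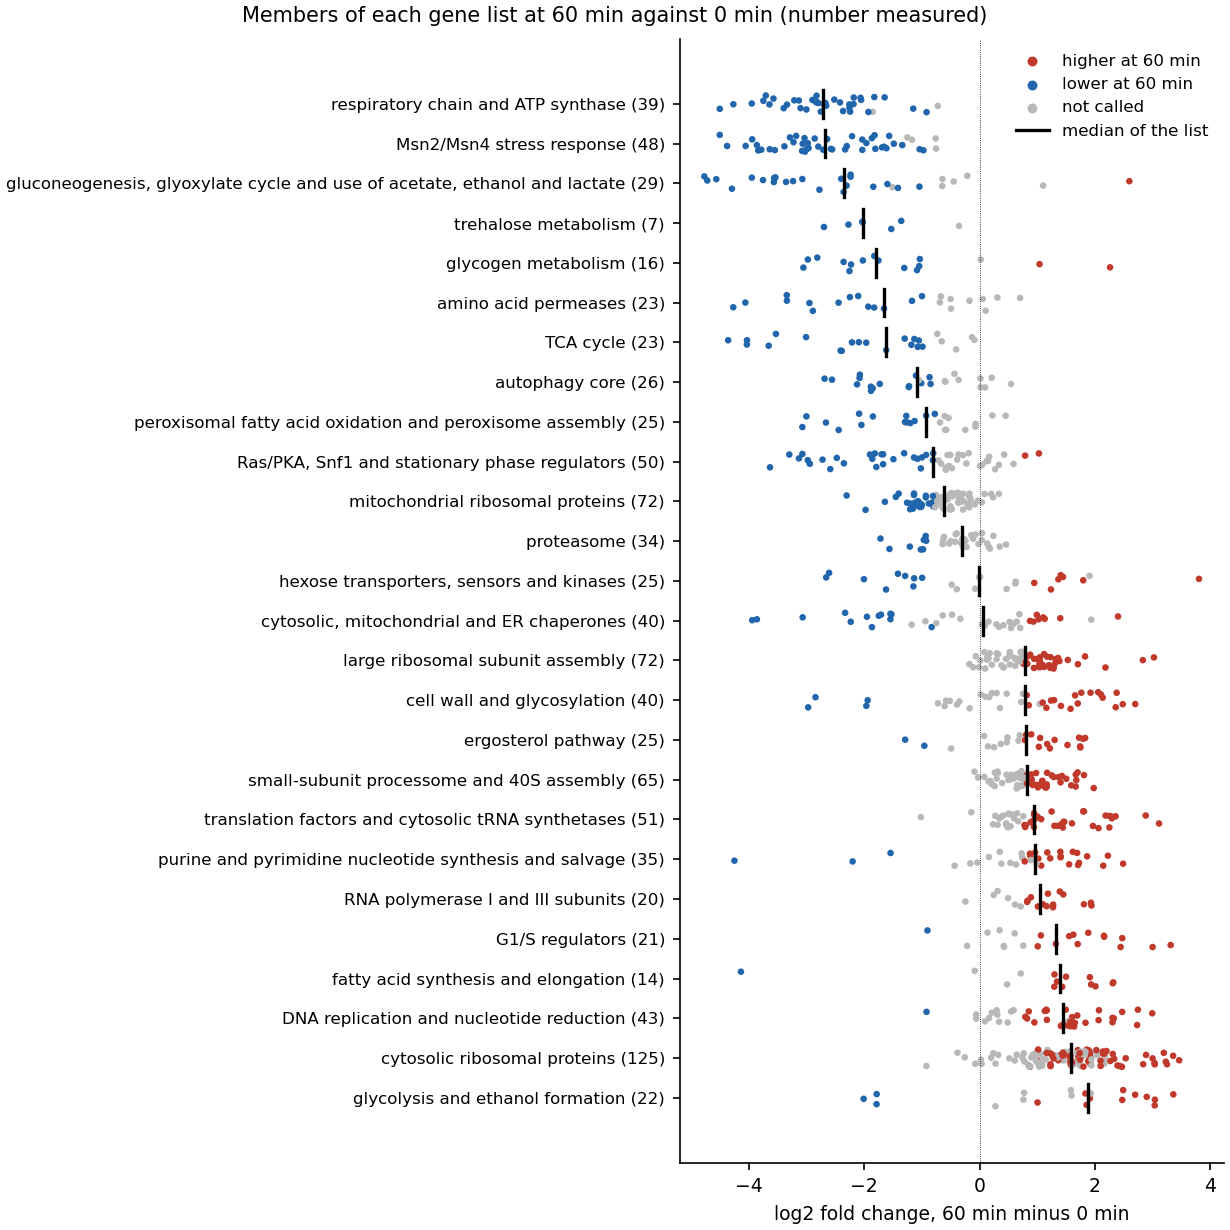
Log2 fold change at 60 min against 0 min (x axis) of every measured member of 26 gene lists, ordered by the list median (black bar), with the number measured in brackets and points coloured by call. Medians run from -2.71 for the respiratory chain to 1.88 for glycolysis, whose members, like those of the cytosolic ribosome, are largely saturated.

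The machinery that builds ribosomes rose. Of 65 genes of the small-subunit processome and 40S assembly, 33 were higher and 0 lower (median 0.82), and of 72 large-subunit assembly genes 37 were higher and 0 lower (median 0.78), against 19.0% of all genes tested that were higher. UTP10, a subunit of the small-subunit processome, had 0.70 and 0.72 at 60 min and -1.13 and -1.08 at 0 min, a 3.51-fold rise (SE 0.09 on the log2 scale, adjusted p = 4.22e-09 by limma). REA1, the ATPase that remodels large-subunit precursors, rose 8.14-fold, with 0.86 and 0.90 at 60 min, against -1.78 and -2.52 at 0 min. URB1 and MAK21, also of the large-subunit assembly list, rose 7.13-fold and 3.56-fold. RNA polymerases I and III, which make ribosomal RNA, 5S RNA and tRNA, had 14 of 20 subunit genes higher and 0 lower. Their leading members were RPA190, the largest subunit of polymerase I, 3.84-fold higher with 0.92 and 1.04 at 60 min and -1.04 and -0.88 at 0 min, and RPC34 of polymerase III, 3.51-fold higher. Among translation factors and tRNA synthetases 32 of 51 rose and 0 fell, with GRS1, the glycyl-tRNA synthetase, 7.38-fold higher and VAS1, the valyl-tRNA synthetase, 5.14-fold higher. As labelled, the medians of these 4 lists were 0.45, 0.48, 0.38 and -0.08, and 1 gene in all of them was called. The median ratio of the small-subunit list to the pool was 0.50 and 0.48 at 60 min, against -0.33 and -0.23 at 0 min in cultures a and b.

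The genes for the ribosomal proteins were mostly saturated. Only 14 of 125 cytosolic ribosomal protein genes stayed below saturation on all 4 arrays, and 11 of these 14 were higher and 0 lower, with a median of 1.57. Over all 125, 61 were higher and 0 lower, and without the 0 min array of culture a 37 were higher and 3 lower. As labelled, 0 were called and the median was -0.95. Leaving out culture b gave 106 higher when its 0 min array was dropped and 39 when its 60 min array was. RPL24A shows the spread, with 1.32 and 1.56 at 60 min, against -3.79 (a) and -0.26 (b) at 0 min. Its fitted change of 3.46 on the log2 scale became 1.699 without the 0 min sample of culture a, and with 1 loess curve per array it was 1.46 and not called. No fold is given for it. Most ribosomal proteins are encoded by near-identical gene pairs that the probes cannot be assumed to tell apart. UTH1, a protein of the outer mitochondrial membrane and cell wall, had the largest fitted change upwards, 4.18 on the log2 scale, but was saturated on all 4 arrays. With 1 loess curve per array it changed by 0.50 and was not called (adjusted p = 0.379 by limma), and no fold is given.

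Glucose uptake and fermentation split by isozyme. HXT1, the low-affinity transporter that serves high glucose, had 0.66 and 1.26 at 60 min, against -3.17 and -2.53 at 0 min, a 14-fold rise (SE 0.27 on the log2 scale, adjusted p = 1.06e-07 by limma). HXT5, a transporter of slow-growing cells, fell 6.32-fold, with 0.81 and 0.84 at 60 min and 3.15 and 3.82 at 0 min. The glucokinase gene GLK1 fell 6.1-fold and MTH1, a co-repressor of transporter genes that is removed in glucose, 4.01-fold. In the whole list of 25 transporters, sensors and kinases, 7 were higher and 9 lower, against 19.0% and 22.0% of all genes tested. With the shift to the external controls 13 were higher and 4 lower. HXT8 was 3.48-fold higher, although transporter genes share long stretches of sequence. Of 22 genes of glycolysis and ethanol formation 12 were higher and 3 lower, but only 8 were below saturation on all 4 arrays, 4 of them higher and 2 lower. PDC1, the main pyruvate decarboxylase, was saturated on both 60 min arrays and is given no fold. Its 0 min ratios were -5.05 (a) and -2.02 (b), and its fitted change of 3.36 on the log2 scale became 1.84 without the 0 min sample of culture a. PDC6, a minor isozyme of similar sequence, had 0.19 and 0.31 at 60 min and -2.81 and -2.78 at 0 min. PGK1, phosphoglycerate kinase, rose 8.23-fold, with the reference channel saturated on 2 arrays. PYK2, the pyruvate kinase isozyme used at low glycolytic flux, fell 3.45-fold. As labelled, 1 gene of the 2 lists was called, and the medians were 0.16 and -1.29.

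More genes of nucleotide, lipid and cell wall synthesis were higher than lower, which was not so for amino acid synthesis. Of all genes tested 19.0% were higher and 22.0% lower. In purine and pyrimidine metabolism 20 of 35 genes were higher and 3 lower. IMD2, an IMP dehydrogenase of GTP synthesis, rose 5.62-fold, and ADE6, a step of purine synthesis, 4.68-fold, with 0.30 and 0.32 at 60 min and -1.93 and -1.90 at 0 min. URA10, the minor orotate phosphoribosyltransferase, fell 19.1-fold and URA8, the minor CTP synthase, 4.6-fold. In fatty acid synthesis and elongation 10 of 14 were higher. ELO2, an elongase of very long chains, had -0.32 and -0.14 at 60 min, against -2.83 and -2.28 at 0 min, a 5.0-fold rise. The acyl-CoA synthetase genes FAA4 and FAA1 parted, 4.03-fold higher and 17.6-fold lower. In the ergosterol pathway 14 of 25 were higher and 2 lower. ERG6, a methyltransferase of the late pathway, rose 3.36-fold, with -0.71 and -0.80 at 60 min and -2.56 and -2.45 at 0 min. ERG9, the squalene synthase at the branch point to sterols, and ERG28, a scaffold of the demethylation complex, fell 2.45-fold and 1.94-fold. ERG9 had -1.36 and -1.44 at 60 min, against -0.02 and -0.20 at 0 min. With its 0 min ratio of culture a near 0, ERG9 was called also as labelled (log2 -1.31). Neither ERG9 nor ERG28 was called after the shift to the external controls. Among 40 genes of the cell wall and glycosylation 19 were higher and 4 lower, led by CIS3 at 6.51-fold and GAS3 at 5.6-fold higher. GSC2, the glucan synthase subunit of stressed and sporulating cells, fell 7.19-fold. Without the 0 min sample of culture a, 16 of the cell wall genes were higher and 7 lower. In amino acid synthesis 15 of 62 genes were higher and 20 lower, with a median of -0.33, and the shift to the external controls turned this to 28 higher and 8 lower. The list ran from the arginine gene ARG4, 14-fold lower, to LEU9, 3.8-fold higher. The log2 change of ARG4 was -4.40 without the 0 min sample of culture a and -3.22 without that of culture b. As labelled, 1 amino acid synthesis gene was higher and 1 lower, and the medians of the nucleotide, fatty acid, ergosterol and cell wall lists were 0.03, -0.60, -0.78 and -0.34. In these 4 lists 1 nucleotide gene was then higher, and 1 nucleotide, 1 ergosterol and 2 cell wall genes were lower.

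Chaperone genes were called in both directions, but the share called higher was close to that of all genes. Of 40 genes 8 were higher and 13 lower, with a median of 0.07, against 19.0% of all genes tested higher and 22.0% lower. The stress-induced chaperones HSP78 of mitochondria, SSE2 and SSA4 fell 14.5-fold, 8.38-fold and 5.03-fold. They and HSP104 also belong to the list of Msn2 and Msn4 targets, so that their falls enter both counts. ZUO1, the ribosome-bound partner of Hsp70, rose 5.29-fold, with 0.11 and 0.19 at 60 min, against -2.42 and -2.09 at 0 min, and SCJ1 of the endoplasmic reticulum 2.64-fold. Without the 0 min array of culture a the counts were 6 higher and 19 lower, and with the shift to the external controls 21 higher and 9 lower. As labelled, 0 were higher and 5 lower. Iron uptake had 5 of 24 genes higher, close to the 19.0% of all genes, and 2 lower, below their 22.0%. The counts were 4 higher and 4 lower without the 0 min array of culture a. They were 15 higher and 0 lower with the external controls, and 1 higher as labelled. The phosphate regulon had 1 of 17 genes higher and 3 lower, both shares below those of all genes. With the external controls 5 were higher and 1 lower, and as labelled 1 was lower. The 7 a-cell genes were among those used to settle the sign of culture a at 0 min. Their change therefore serves as a check and is not counted as a result. With that array turned 5 were higher and 0 lower, with a median of 1.39, and as labelled 0 were called. Without that array, which leaves only culture b at 0 min, their median change was 1.21.

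**Figure D3:**
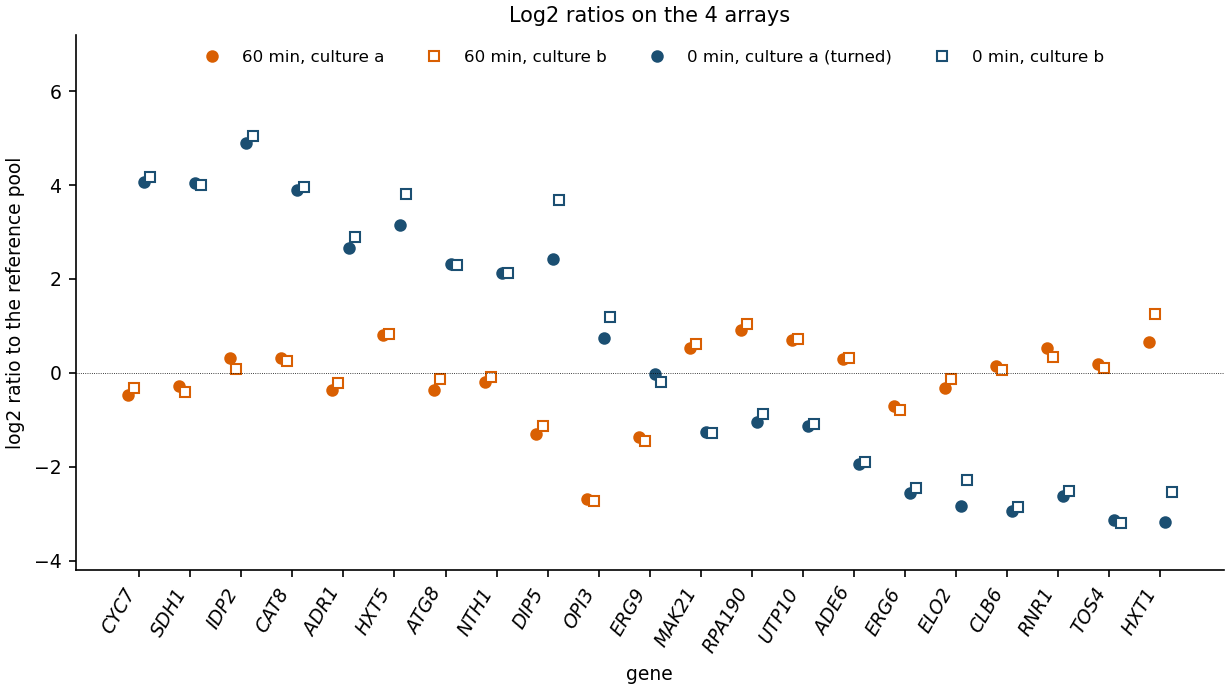
Log2 ratio to the reference pool (y axis) of 21 genes on the 2 arrays at 60 min (orange) and the 2 arrays at 0 min (blue), culture a filled and culture b open, with culture a at 0 min turned. The 60 min arrays lie below both 0 min arrays for the genes from CYC7 to ERG9 and above them from MAK21 to HXT1.

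Genes of the G1/S transition and of DNA replication were higher at 60 min. Of 21 G1/S regulators 13 were higher than at 0 min and 1 lower, and of 43 genes of DNA replication and nucleotide reduction 30 were higher and 1 lower, with medians of 1.33 and 1.46. TOS4, a target of the G1/S factor SBF, had 0.20 and 0.11 at 60 min and -3.13 and -3.20 at 0 min, a 9.96-fold rise (SE 0.14 on the log2 scale, adjusted p = 1.71e-09 by limma). The S phase cyclin gene CLB6 rose 8.02-fold, with 0.15 and 0.06 at 60 min, against -2.94 and -2.85 at 0 min. The G1 cyclin gene CLN2 rose 5.46-fold, RNR1, the large subunit of ribonucleotide reductase, 7.98-fold, and POL1, the catalytic subunit of DNA polymerase alpha, 6.72-fold. The lower genes were SIC1, the inhibitor of S phase cyclin kinase, 1.87-fold, and RNR3, the damage-induced subunit, 1.89-fold, neither called after the shift to the external controls. The helicase and origin licensing genes moved less, with a median of 0.25. Only 3 of 15 were higher, a share close to the 19.0% of all genes tested, MCM2 among them at 2.25-fold. As labelled, 0 genes of these 3 lists were called, with medians of -0.15, 0.27 and 0.16.

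The same genes were compared with 30 min, a comparison that holds no 0 min array. At 60 min 171 genes were higher and 171 lower than at 30 min, or 3.25% of the 5269 in each direction and 6.49% in all. The opposed 0 min arrays enter only the shared estimate of the spread, and with them as labelled the counts were 6 higher (0.114%) and 3 lower (0.0569%), together 0.171%. A model without any 0 min array gave 177 higher (3.36%) and 188 lower (3.57%), together 6.93%. Of the 10 histone genes 8 were higher at 60 min than at 30 min, which were all the core histone genes measured, with a median change of 2.18. HHF1, a histone H4 gene, had -0.33 and -0.26 at 60 min, against -3.49 and -3.24 at 30 min, a difference of 3.07 (SE 0.11, adjusted p = 1.55e-08 by limma). HTA2 and HTA1, the histone H2A genes, were 3.05 and 2.34 higher and HHF2 2.92 higher. Each of these 3 was saturated on 2 of the 4 arrays at 60 and 0 min, and near-identical pairs such as these may share signal. Against 0 min only 3 of the 10 were higher, HHF1 3.88-fold and HHT1 2.14-fold among them, and as labelled 0. Beside the histones, 17 of 43 replication genes and 10 of 21 G1/S genes were higher at 60 min than at 30 min and none lower. CLB6 differed by 1.92, RNR1 by 1.63 and POL1 by 1.15, and TOS4 by 2.77. The mitotic Clb2 cluster ran the other way, with 9 of 20 genes lower at 60 min than at 30 min and 0 higher. SWI5, the activator of late mitotic and early G1 genes, had -2.16 and -2.24 at 60 min, against -1.15 at 30 min in both cultures. CLB2, the mitotic cyclin gene, had -1.76 and -1.84 at 60 min, against -0.96 at 30 min in both cultures (log2 -0.84, SE 0.10, adjusted p = 8.58e-05 by limma). Neither SWI5 nor CLB2 was called against 30 min after the shift to the external controls. Without any 0 min array in the model, the counts of the histone, replication, G1/S and mitotic lists were unchanged at 8, 17, 10 and 9. With the 0 min arrays as labelled, 3 histone genes and none of the other 3 lists were called.

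The mitotic genes were also lower at 60 min than at 300 min. Against 300 min, 79 genes were higher at 60 min and 245 lower, or 1.5% and 4.65% of those tested and 6.15% in all. With the 0 min arrays as labelled these counts were 2 (0.038%) and 27 (0.512%), together 0.55%. Without any 0 min array in the model they were 94 (1.78%) and 268 (5.09%), together 6.87%. In the mitotic cluster 14 of 20 genes were lower and 0 higher, with a median of -1.39. CLB2 had -1.76 and -1.84 at 60 min and 0.28 and 0.08 at 300 min (log2 -1.98, SE 0.10, adjusted p = 5.02e-07 by limma). SWI5 was lower (log2 -1.93), CHS2, the chitin synthase of the primary septum, (log2 -2.39) and CDC20, which activates the anaphase-promoting complex, (log2 -1.56). At 0 min CLB2 was lower still, with -3.40 and -3.66, so that it was 3.32-fold higher at 60 min, while CDC20 was 3.22-fold lower at 60 min than at 0 min. Of the 20 mitotic genes, 10 were higher and 1 lower than at 0 min, and as labelled 0 were higher and 1 lower. Genes of daughter cell separation, which act after mitosis, were below their level at 300 min for 10 of 17 members and 0 were above it. SUN4, a glucanase-related protein of septation, was lower (log2 -0.99) than at 300 min and 4.54-fold higher than at 0 min. Its difference from 300 min was not called when the 60 min sample of culture a or the 300 min sample of culture b was left out. ASH1, the daughter-specific repressor of HO, was lower (log2 -1.6) than at 300 min and 2.66-fold lower than at 0 min. HO, the mating type endonuclease gene, had -2.26 and -2.17 at 60 min, against -0.20 and -0.11 at 300 min. The replication list had 3 genes above their level at 300 min, POL1 by 0.87 with POL2 and CDC45, and 0 below. With the 0 min arrays as labelled, 1 mitotic gene, and no separation or replication gene, was called.

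**Figure D4:**
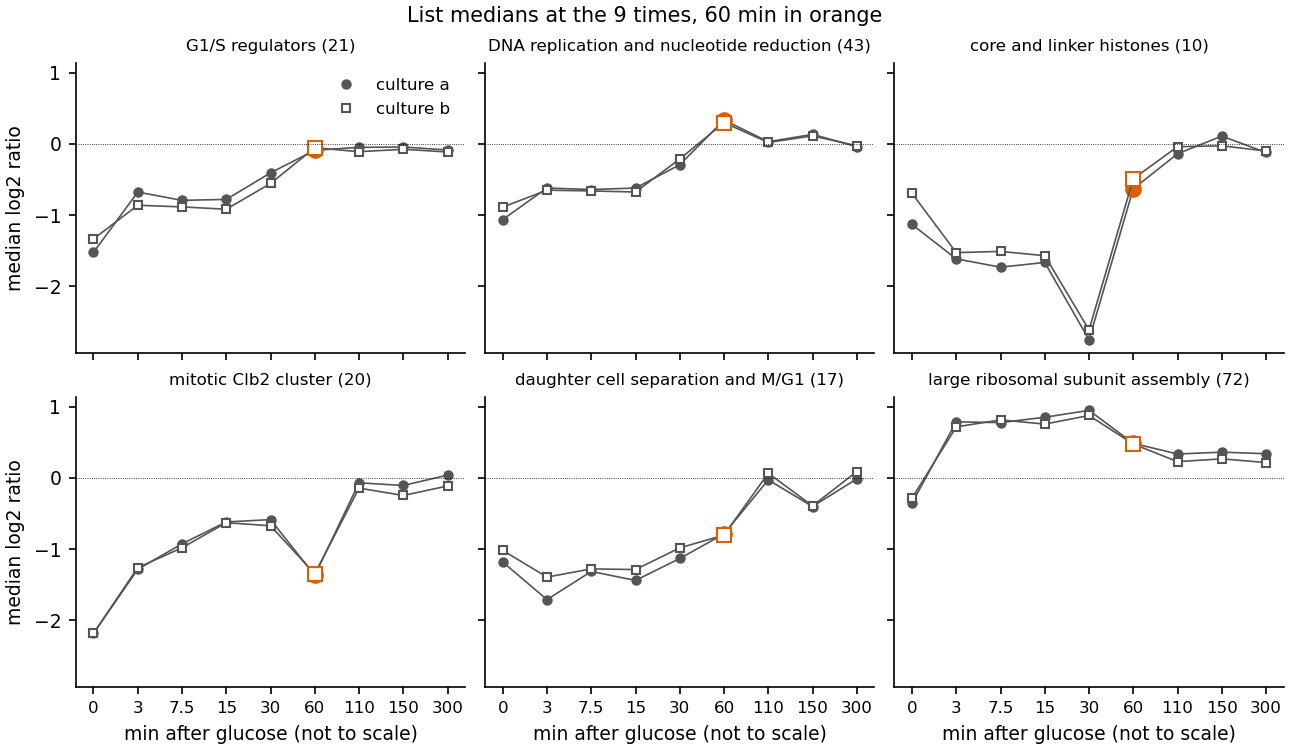
Median log2 ratio to the reference pool (y axis) of 6 gene lists in cultures a and b at the 9 times (x axis, equally spaced), with 60 min in orange and the 0 min array of culture a turned. At 60 min the replication list reaches 0.34 and 0.30, the histones have left their low of 30 min, and the mitotic list is at -1.37 and -1.35.

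Several metabolic groups were lower at 60 min than at 300 min. Of 34 proteasome genes 11 were lower at 60 min than at 300 min and 0 higher, RPT2 (log2 -0.96). In the ergosterol list 7 of 25 were lower and 0 higher, with ERG28 at -1.98 and -1.82 at 60 min, against -0.23 and -0.06 at 300 min, and ERG9 lower (log2 -1.25). Of all genes tested 4.65% were lower than at 300 min. With the 0 min arrays as labelled, 0 proteasome genes and 1 ergosterol gene were lower. OPI3, the phospholipid methyltransferase of phosphatidylcholine synthesis, had the largest negative difference, with -2.69 and -2.72 at 60 min and -0.36 and -0.09 at 300 min (log2 -2.48, SE 0.15, adjusted p = 1.45e-06 by limma). SAM2, which makes the methyl donor S-adenosylmethionine, was lower (log2 -2.31). SFG1, a regulator of cell separation and filamentous growth, was lower (log2 -2.09). In the other direction BAT2, the cytosolic branched-chain aminotransferase, had 2.47 and 2.52 at 60 min and -0.10 and 0.03 at 300 min (log2 2.53, SE 0.19, adjusted p = 4.71e-06 by limma). NCA3, a cell wall protein related to SUN4, was 2.50 higher, RCK1, a kinase of the oxidative stress response, 2.46 higher, and SER3, the first enzyme of serine synthesis, 2.42 higher. CRC1, the mitochondrial carnitine carrier, and VID24, which marks gluconeogenic enzymes for degradation, were 2.29 and 2.23 higher. RCK1, CRC1 and VID24 had still higher ratios at 0 min, with 5.04 and 5.73 for RCK1, and all 3 were called lower at 60 min than at 0 min and higher than at 300 min.

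Some permease, nitrogen and phosphate genes were lower at 60 min than at 30 min, whereas hexose uptake had 5 of 25 genes higher and 0 lower, HXT1 by 1.10 on the log2 scale. Of the 23 permeases 7 were lower at 60 min than at 30 min and 0 higher, and of 62 amino acid synthesis genes 12 were lower and 2 higher. Over all genes tested 3.25% were lower and 3.25% higher. With the shift to the external controls, 91 of all genes tested were lower than at 30 min, in place of 171, and 375 were higher. DIP5 was lower (log2 -2.07) and AGP1 was lower (log2 -1.6). PUT1, the first enzyme of proline breakdown, had 0.77 and 0.67 at 60 min, against 2.82 and 2.88 at 30 min. The largest negative difference belonged to BIO5, the permease for the biotin precursor, which the permease list holds, with -1.18 and -1.06 at 60 min, against 1.35 and 1.49 at 30 min (log2 -2.54, SE 0.19, adjusted p = 3.05e-06 by limma). PDH1, a putative methylcitrate dehydratase of propionate breakdown, was lower (log2 -2.24) and CIT2 (log2 -2.17). In the phosphate regulon 6 of 17 genes were lower and 0 higher, with PHO89, a phosphate transporter, at 1.27 and 1.36 at 60 min and 3.53 and 3.18 at 30 min. With the 0 min arrays as labelled, no permease, amino acid synthesis, phosphate or hexose uptake gene was called against 30 min. TOS6, a cell wall protein, was 2.50 higher at 60 min than at 30 min and 11.5-fold higher than at 0 min. MKC7, an aspartyl protease of the cell surface, was 10.1-fold higher than at 0 min, with 0.12 and 0.17 at 60 min and -3.38 and -3.0 at 0 min. Ribosome assembly genes had medians of -0.40 and -0.39 against 30 min, with 0 of 65 small-subunit and 1 of 72 large-subunit genes called lower.

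**Figure D5:**
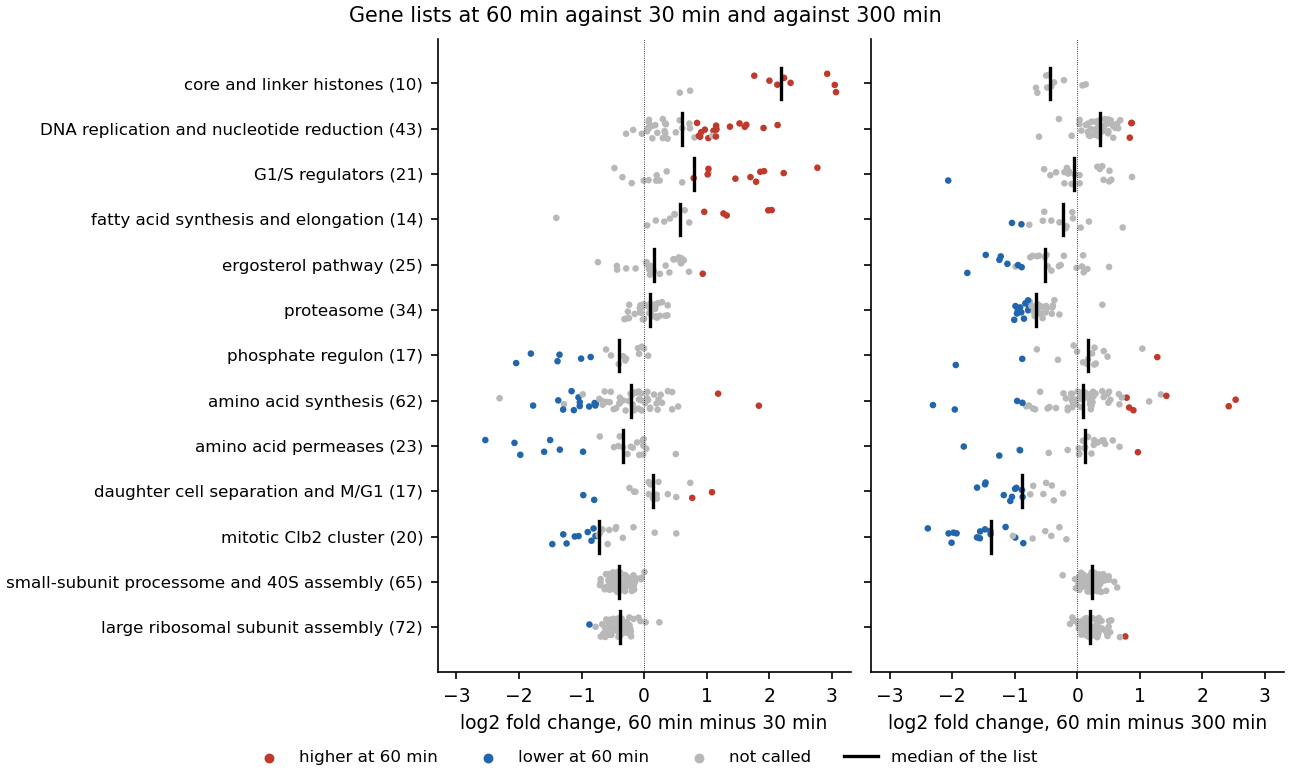
Log2 fold change of the members of 13 gene lists at 60 min against 30 min (left) and against 300 min (right), with the list median as a black bar, the number measured in brackets and points coloured by call. Most histone, replication and G1/S genes lie to the right of 0 against 30 min, and most mitotic genes lie to the left of 0 in both panels.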

How the data were processed

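Expression was measured on two-colour 70-mer arrays, with the sample in one dye and a common reference pool in the other. According to the Methods, the authors took mean spot intensities from ImaGene without background subtraction and applied print-tip loess, and both the scanner intensities and a table of log2 ratios were deposited. Among tools, limma 2.12.0 appears in the submitters' processing notes. The deposited log2 ratios were used here, as sample over reference, averaged over the 2 spots of each probe, after the sign of culture a at 0 min had been turned. They correlated at 0.999774 or more with ratios recomputed from the deposited intensities. Column medians as labelled were -0.0106 to 0.0225, and no source used here states a further centring step. Spots above 2 to the power 15 were treated as saturated, as in the Methods.

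Of 6388 gene probes 5326 have a gene symbol and 1062 none in the platform annotation, and no probe has several. Among the symbols, 5255 matched the reference table directly and 60 through an older name. For 12 genes with several probes the brighter probe was kept, and the probes of 3 of them differ in call. Without 19 mitochondrial and 26 transposable-element probes, 5269 genes were tested. A single linear model with the 9 times as coefficients was fitted to all 18 arrays in R 4.3.3 with limma 3.58.1 (lmFit, eBayes, 9 residual degrees of freedom) and tested on simulated data. Calls needed more than a 1.7-fold difference at an adjusted p (Benjamini-Hochberg) below 0.01. Fold changes are given on the log2 scale or as linear folds, and SE is the moderated standard error of the log2 difference. Where the sample's channel was saturated on both arrays of a time, no fold is given, since lower bounds from that channel exceeded the fitted fold for some genes.

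The cultures pair the arrays, since according to the Methods 1 culture was followed over all times. The deviations of a culture from the mean at 60 min and at 0 min correlated across genes at 0.39, and here culture cannot be told from dye. The members, the 36 gene lists and the alternatives were chosen with earlier results of these data known, so lists are described by counts and medians and were not tested. Some genes stand in several lists, such as CYC7 and STF2 in those of respiration and of the stress response. The rule names the 12 largest rises and falls, up to 4 called members of each list and up to 2 in the other direction, the 6 largest each way against 30 and 300 min, and mating type and auxotrophy genes. Not all of them are described, and other genes are said to be outside it. ATP2, ATP17, LSC1, PDA1, PDB1, LAT1, PDX1, GPH1, POL2 and CDC45 complete counts and, like POT1 and DCI1, were picked after their values were seen. A search of promoters for motifs was planned and was not run, as no promoter sequences were at hand. Alternatives were the direction, omission or exclusion of arrays, the culture as a block, other background and loess settings, the external controls and filters. The model without 0 min arrays and the filter on saturation were chosen after seeing the data.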

Additional observations from a re-analysis of the deposited data

Results flagged for a closer look

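Some probes outside the comparison were called at 60 min against 0 min, which is why they are listed here. In a limma model over all gene probes, 288 of 1062 probes without a gene symbol were called, 108 higher and 180 lower at 60 min, with a median change of -0.02 on the log2 scale. These are 27.1% of them, below the 40.9% of all genes tested, and 3 higher and 9 lower were called when culture a at 0 min was read as labelled. Of 19 probes of the mitochondrial genome 3 were lower at 60 min and 0 higher, which are 15.8%, below the 22.0% of all genes that were lower. ATP8 and ATP6, subunits of ATP synthase, had 0.92 and 1.25 for ATP8 and 0.66 and 0.61 for ATP6 at 60 min, against 2.97 and 2.67 for ATP8 and 1.71 and 1.30 for ATP6 at 0 min, and OLI1, of the same enzyme, was lower by 1.44 (log2 -1.44). COX1, COX2, COX3 and COB, of the respiratory chain encoded in mitochondria, were not called, with changes from -0.17 to 0.67. As labelled, 0 mitochondrial probes were called. Of 26 transposable-element probes 9 were called (34.6%), 6 higher and 3 lower, and these repeated sequences share signal between copies. No group held enough arrays to look for single samples that stand apart.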

How the results depend on the processing

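The counts depended most on how the 0 min array from culture a was read. As labelled, 73 genes were called against 0 min (7 higher, 66 lower), 9 against 30 min (6 higher, 3 lower) and 29 against 300 min (2 higher, 27 lower), and 22 list members in place of 660. Of 104 genes followed against 0 min, 4 kept their call, 71 lost it and 29 changed sign. The log2 changes of these 29 were CIT3 0.259, IDP2 0.119, CAT2 0.034, CAT8 0.254, SIP4 0.196, REG2 0.272, HSP26 0.373, SIP18 0.806, POX1 0.558, HXT5 0.487, MTH1 1.386 and GSC2 0.525, and SNF4 -0.292, ZUO1 -0.018, SCJ1 -0.312, PGM1 -1.109, PDC1 -1.692, PGK1 -1.195, RPL24A -0.324, GRS1 -0.049, ELO2 -0.506, ERG6 -0.809, CIS3 -0.833, GAS3 -0.829, MKC7 -0.048, CLN2 -0.346, HHF1 -0.284, CLB2 -1.67 and SUN4 -1.229. The shift to the external controls gave 2701 higher and 488 lower against 0 min, or 84.7% higher among the calls in place of 46.3%, and 375 higher and 91 lower against 30 min. It also raised the number higher against 0 min to 63 small-subunit and 65 large-subunit assembly, 110 ribosomal protein, 11 licensing, 6 histone and 16 mitotic genes, and RPN4, ERG9, ERG28, SIC1, RNR3 and ASH1 lost their calls. With 1 loess curve per array, CIS3 changed by 1.71, GRS1 by 2.25, HXT1 by 3.19, ADH2 by 1.97 and CIT1 by -4.69, and TOD6, SNF4 and SIC1 lost their calls. Leaving out 1 array at a time gave 2027 to 2288 genes (859 to 1134 higher, 1125 to 1176 lower) against 0 min, 265 to 365 (133 to 177 higher, 117 to 188 lower) against 30 min, 240 to 362 (55 to 94 higher, 185 to 268 lower) against 300 min and 617 to 729 list members. With the culture as a replicate block, 2208 genes were called against 0 min (1034 higher, 1174 lower), and the pairing changed the call of none of the genes followed. A model of only the 4 arrays at 60 and 0 min called 1865 genes (817 higher, 1048 lower). The alternative with a scan or print batch was not run, because the file headers give none. Saturation limits the ribosomal protein and glycolysis genes.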

Other observations

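Genes of several pathways not described above differed between 60 min and the neighbouring times, and they were picked after their values were seen. Phospholipid synthesis genes were lower at 60 min than at 300 min, with log2 differences of -1.52 for CHO1, the phosphatidylserine synthase, -1.32 for CHO2, a phosphatidylethanolamine methyltransferase, -1.30 for ITR1, an inositol transporter, and -1.17 for PSD1, a phosphatidylserine decarboxylase. INO1, the inositol phosphate synthase of the same regulon, was not called against 300 min (log2 0.03). Methionine and one-carbon genes were also lower than at 300 min, with -1.96 for MET6, the methionine synthase, and -1.64 for SHM2, the cytosolic serine hydroxymethyltransferase.

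Against 30 min, genes of biotin supply were lower at 60 min, with log2 differences of -1.84 for BIO3, -1.39 for BIO4 and -1.27 for BIO2, all of biotin synthesis, and -1.87 for VHT1, the biotin transporter. Genes for the use of other nitrogen sources were lower too, GAP1, the general amino acid permease, at -1.98, DUR3, a urea transporter, at -1.46 and GDH2, a glutamate dehydrogenase, at -1.70, while DAL80 and DAL5 were not called.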
